A study of Homo sapiens with 9 samples.

Results

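The genes described here are the cytokine, chemokine and TNF family genes of EA.hy926 cells, chosen by symbol: interleukins and their receptors (IL followed by a digit), CXC, CC and CX3C chemokines and their receptors, colony-stimulating factors (CSF), TNF and interferon family symbols, Toll-like receptors (TLR), and the NF-kB genes (NFKB, REL, RELA and RELB). IL11 and CXCL8 were left out of the set. The rule found 132 genes among 14884 named genes, and for each gene the brightest of its probe sets, by mean level, was read. Of the 132, 92 were expressed, meaning a log2 intensity of at least 5 on 3 or more of the 9 arrays, and 40 were not.

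EA.hy926 is an established human hybrid line made by fusing umbilical vein endothelial cells with a lung carcinoma line. Cells were exposed for 6 h to silver nanoparticles of 5 nm or of 100 nm, each at about the concentration that kills 50% of cells, or were left unexposed as controls. Each group held 3 whole-transcript arrays, numbered 1 to 3 in the labels, made from 300 ng of total RNA each; the labels give no mass dose. All groups were the same line. The labels do not tie replicates to separate cultures, so the p-values reflect the spread among these arrays, which may be technical. Values are the authors' log2 RMA intensities, and a difference of 1 on this scale is a doubling.

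Cytokines are secreted proteins that bind receptors on the same or neighbouring cells. Interleukin and interferon receptors signal mainly through JAK kinases and STAT factors, whereas receptors of the interleukin-1, interleukin-17 and TNF families and the Toll-like receptors activate NF-kB, a dimer of REL-family proteins held in the cytoplasm by inhibitors. NF-kB induces chemokines and adhesion molecules in endothelial cells, which then recruit leukocytes, and it also induces its own subunits and inhibitors, which form its feedback loop. The symbol rule is wider than the genes it found here. Of the TNF ligand family it found TNF alone, and it found no coding gene of a TNF receptor and no interferon. It also found none of the feedback inhibitors NFKBIA, NFKBIB, NFKBIE, NFKBIZ and TNFAIP3, nor IL6, IL1A, IL1B and CXCL1. No named probe set carried these symbols, so these genes were not analysed here and nothing is known of their levels. The set is therefore one of interleukins, chemokines, their receptors, Toll-like receptors and NF-kB subunits.

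The promoters below belong to the expressed genes with the largest differences between 5 nm silver and control among receptors in each direction (IL1RL1 and IL7R, IFNGR2) and among chemokines (CXCL2). Each line gives the 250 bases before an annotated start in RefSeq (GRCh38.p14), 5′ to 3′ along the gene's strand. IL1RL1 has 2 starts in the table, at chr2:102311313-102311562 and chr2:102337007-102337256 on the plus strand. IL7R lies at chr5:35856641-35856890 (plus), IFNGR2 at chr21:33403163-33403412 (plus) and CXCL2 at chr4:74099196-74099445 (minus). Capitals mark a match to the NF-kB consensus or to the AP-1 motif TGANTCA on either strand.
IL1RL1 start 1: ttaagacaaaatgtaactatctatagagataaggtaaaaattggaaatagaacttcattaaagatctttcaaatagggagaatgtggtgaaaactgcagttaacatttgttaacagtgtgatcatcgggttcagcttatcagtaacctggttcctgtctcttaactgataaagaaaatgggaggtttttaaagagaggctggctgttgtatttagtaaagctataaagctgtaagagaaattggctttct
IL1RL1 start 2: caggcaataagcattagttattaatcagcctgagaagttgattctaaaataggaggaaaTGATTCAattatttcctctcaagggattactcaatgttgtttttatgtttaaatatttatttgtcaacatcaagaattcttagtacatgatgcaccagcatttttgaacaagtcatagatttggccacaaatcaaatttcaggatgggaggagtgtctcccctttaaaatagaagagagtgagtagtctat
IL7R: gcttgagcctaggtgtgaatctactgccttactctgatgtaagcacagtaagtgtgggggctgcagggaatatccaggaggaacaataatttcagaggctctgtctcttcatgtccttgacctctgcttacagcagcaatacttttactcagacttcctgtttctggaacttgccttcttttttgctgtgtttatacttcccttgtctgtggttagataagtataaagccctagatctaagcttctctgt
IFNGR2: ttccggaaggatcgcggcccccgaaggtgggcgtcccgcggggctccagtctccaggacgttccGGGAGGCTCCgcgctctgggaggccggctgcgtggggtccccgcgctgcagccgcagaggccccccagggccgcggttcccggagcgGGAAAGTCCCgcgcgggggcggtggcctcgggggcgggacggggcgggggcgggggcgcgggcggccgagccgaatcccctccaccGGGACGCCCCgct
CXCL2: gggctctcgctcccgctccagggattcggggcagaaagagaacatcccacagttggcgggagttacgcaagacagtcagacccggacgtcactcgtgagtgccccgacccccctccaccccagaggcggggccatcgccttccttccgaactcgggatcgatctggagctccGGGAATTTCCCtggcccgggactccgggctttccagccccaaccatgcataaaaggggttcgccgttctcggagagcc
The CXCL2 window held the NF-kB consensus at bases -78 to -69 and, on the other strand, at -77 to -68, so that both matches share most of their letters. The IFNGR2 window held it at -186 to -177, at -99 to -90 and at -13 to -4, the last on both strands. The second IL1RL1 start had 1 AP-1 match, TGATTCA at -191 to -185. The motif TGANTCA allows any base in its middle and is its own reverse complement, so each match falls on both strands. The first start and IL7R had no match to any of 5 motifs. The other motifs searched were the heat shock pair GAANNTTC, the antioxidant response core TGACNNNGC and the metal response core TGCNCNC, and none of them occurred in the 5 windows.

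Promoter windows were found for 97 of the 132 genes, 146 windows in all, against 35114 windows of all genes in the table. The NF-kB consensus occurred in 13.0% of the family's windows and in 9.96% of all windows. It was in windows of 18 genes, among them NFKB1, NFKB2, REL, CXCL2, CCL20, CXCL10, IL4R and IFNGR2. The AP-1 motif occurred in 12.3% of the family's windows and in 6.57% of all windows. The heat shock pair was in 4.11% against 5.78%, the antioxidant core in 10.3% against 10.9% and the metal core in 43.2% against 49.1%. These shares describe letters in a window, with no test, and a match is not a binding site.

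Across the arrays, the median log2 intensity was 5.15 to 5.64 over all probe sets and 6.19 to 6.71 over named genes, so the limit of 5 lies below the middle of each array. Arrays of 1 replicate number held exactly the same value for 39.8% to 65.9% of tested genes, and arrays of different numbers for at most 0.0165%, so differences are given within replicate numbers as well as between group means. RMA run separately on the arrays of each number would leave such ties. How the arrays were grouped for RMA is not stated, so a tie is not read here as an equal amount of RNA, and the spread between numbers may be one of processing. The labelled cell type was checked against its markers. Of 14 endothelial markers named here 13 were expressed, EMCN being the exception, as were 10 of 12 epithelial markers (KRT18 and KRT7 the highest), 6 of 6 leukocyte markers (CD68 the highest, with NKG7 and TYROBP at means of 6.39 and 6.13) and 0 of 2 fibroblast markers. The mean log2 level of the endothelial list was 8.21 to 8.68 on the 5 nm arrays, 8.36 to 8.74 on the 100 nm arrays and 8.35 to 8.77 on the control arrays. The leukocyte list stood at 6.96 to 7.32, 6.88 to 7.32 and 6.95 to 7.29, and the epithelial list at 5.94 to 6.57, 5.99 to 6.62 and 5.99 to 6.64, in the same order of groups. Since leukocyte markers reached the limit in an endothelial line, a value near 5 or 6 is not read here as evidence that a transcript is made.

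Of 65 ligands 41 were expressed (63.1%), of 50 receptors 38 (76.0%) and of 6 NF-kB genes 6, beside 81.7% of all named genes. Of the 92 expressed genes, 50 had a mean under 6 and 59 reached the limit on every array, while 35 of the 132 reached it on none. Because arrays of 1 number share values, 10 of the 92 reached the limit through the arrays of 1 replicate number alone. Just inside the limit, by the value that decides the count of 3 arrays, were CCR4 at 5.05, TLR2 at 5.08 and IL1RAPL1 and CXCR5 at 5.10. Just outside were IL10RB-DT and CXCR3 at 4.99, CCL28 at 4.97 and CXCL3 at 4.93.

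**Figure D1:**
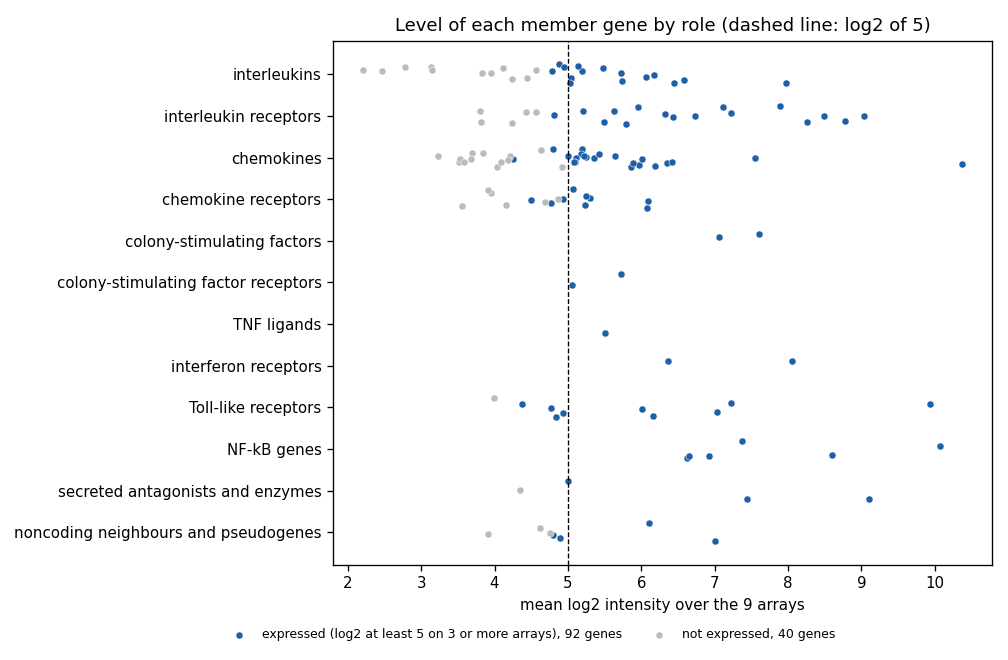
Mean log2 intensity over the 9 arrays (horizontal axis) of each of the 132 genes, by role (rows). Blue points are the 92 expressed genes and grey points the 40 others, and the dashed line is the limit of 5. CCL2, RELA and TLR4 lie near 10, while most chemokines and interleukins lie under 7.

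After 5 nm silver, the largest differences from control among the 92 expressed genes of the set were in a few receptors. The set leaves out IL11, CXCL8 and the cytokines and feedback inhibitors without a named probe set. IL1RL1, the receptor of interleukin-33, was 2.99-fold higher on average and IL7R, the alpha chain of the interleukin-7 receptor, 2.53-fold higher, and both were higher in each of the 3 replicate numbers. IFNGR2, the second chain of the interferon-gamma receptor, was lower in each number. CXCL2, a neutrophil chemokine, and CSF3, the granulocyte colony-stimulating factor, were higher on average by less than 0.5. None of the 92 genes passed the test, an adjusted p under 0.05 in limma with Benjamini-Hochberg adjustment over 12155 genes, where 0.074% of all tested genes passed. With the replicate number as a block 0 passed as well, against 0.65% of all tested genes. In that fit the count became 4 (IL1RL1, IL7R, IL17RA and IFNGR2) without the 5 nm array of replicate 2, where 2.68% of all tested genes passed, and 1 (REL) without the 5 nm array of replicate 3, where 3.67% did. At an unadjusted p under 0.05, 2 of 92 passed (IL1RL1 and IL7R; 1.65% of all tested genes), and with the block 5 (IL1RL1, IL7R, TLR4 and NFKB1 higher and IFNGR2 lower; 14.3% of all tested genes).

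IL1RL1 binds interleukin-33, an alarm signal released by damaged cells, and is known in endothelial cells. The gene was read from 1 probe set, so transcripts from its different annotated starts were not told apart. It read 9.07, 8.91 and 8.77 on the 5 nm arrays, 8.05, 6.60 and 7.59 on the 100 nm arrays and 7.81, 6.57 and 7.63 on the control arrays, replicates 1 to 3 in order. All 3 of the 5 nm arrays lay above all 6 others, and the lowest array of each other group was replicate 2. The group means were 8.92 ± 0.15 after 5 nm silver, 7.41 ± 0.74 after 100 nm silver and 7.33 ± 0.67 in controls (SD, n = 3 each). The difference between 5 nm silver and control was 1.26, 2.34 and 1.14 within the numbers, on average 1.58 (SE 0.40, 95% interval 0.70 to 2.47), with an adjusted p of 0.616 in limma and 0.137 with the block. That interval is for a single gene, whereas the adjusted p takes in all tested genes. Like all SEs and intervals given here, the interval comes from the fit without the block, so it includes the spread between replicate numbers. Its ligand IL33 was not expressed, with 3.41, 2.88 and 3.14 on the arrays of replicates 1, 2 and 3 in every group. The co-receptor IL1RAP likewise had the same deposited values in every group, at 5.92, 5.80 and 5.64, a tie that is not read as an equal amount of RNA.

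IL7R, which pairs with the common gamma chain to receive interleukin-7, read 8.90, 10.00 and 9.21 on the 5 nm arrays, 7.91, 7.98 and 8.26 on the 100 nm arrays and 7.91, 7.93 and 8.26 on the control arrays. Here too each 5 nm array lay above the 6 others, and replicate 2 was the highest of them. Means were 9.37 ± 0.56 after 5 nm silver, 8.05 ± 0.18 after 100 nm silver and 8.03 ± 0.20 in controls (SD, n = 3 each). The 5 nm arrays differed from their controls by 0.99, 2.07 and 0.95, on average 1.34 (SE 0.28, 95% interval 0.71 to 1.97), with an adjusted p of 0.36 in limma and 0.148 with the block. IL7, its ligand, was not expressed, at 3.79, 4.33 and 4.25 on the 5 nm arrays, 3.79, 4.33 and 4.25 on the 100 nm arrays and 3.79, 4.24 and 4.25 on the control arrays. IL1RL1 and IL7R were the only expressed genes of the set more than 0.5 higher in all 3 numbers, and 0.814% of all tested genes met that measure. None was more than 0.5 lower in all 3, where 0.148% of all tested genes were. By non-overlap of the 5 nm and control arrays, IL1RL1 and IL7R lay above (1.41% of all tested genes) and IL4I1 below (0.469%).

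**Figure D2:**
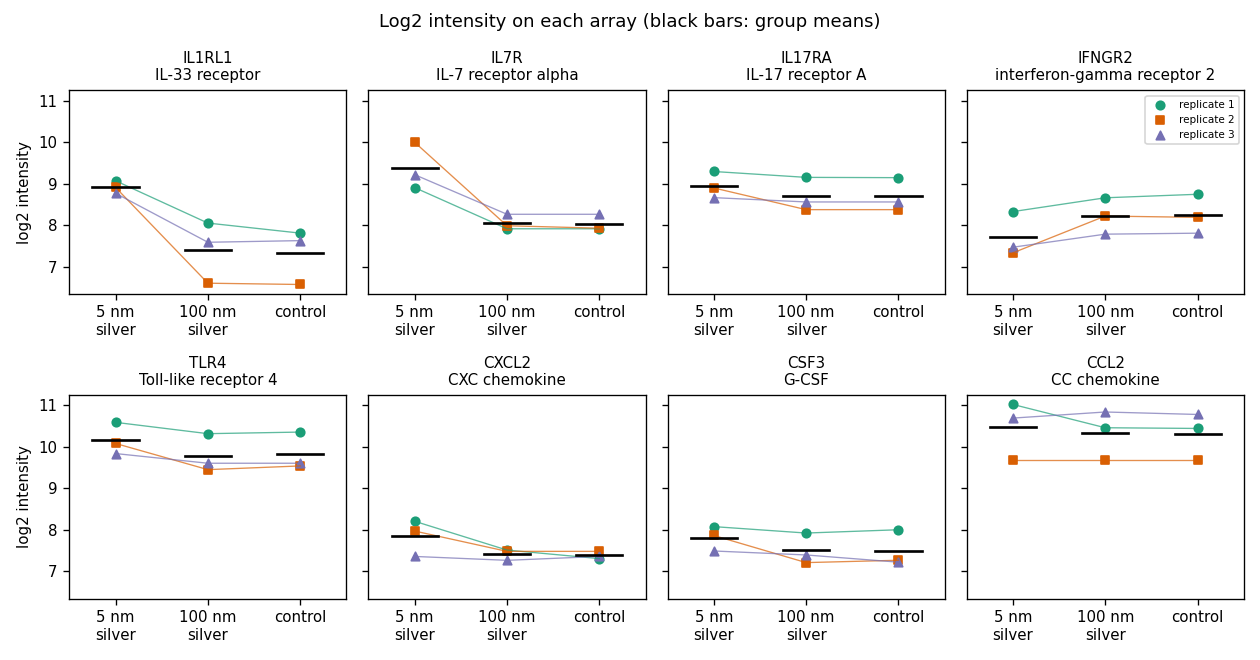
Log2 intensity (vertical axis) of 8 genes on each array, with 5 nm silver, 100 nm silver and control from left to right. Colours and shapes are replicate numbers, thin lines join arrays of 1 number and black bars are group means of 3 arrays. IL1RL1 and IL7R are higher on the 5 nm arrays in every number, while the 100 nm and control points lie close together.

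Other receptors differed less. IFNGR2 read 8.33, 7.33 and 7.47 on the 5 nm arrays, 8.66, 8.22 and 7.78 on the 100 nm arrays and 8.74, 8.19 and 7.81 on the control arrays, and the groups overlapped. Its differences between 5 nm silver and control were -0.42, -0.85 and -0.34, on average -0.54 (95% interval without the block -1.30 to 0.23). In limma its adjusted p was 1 without the block and 0.205 with it, where the unadjusted p was 0.0136. The interval and the overlap of the groups include the spread between replicate numbers. The other chain, IFNGR1, which binds the interferon, read 6.21, 6.50 and 6.37 on the 5 nm arrays, 6.21, 6.49 and 6.37 on the 100 nm arrays and 6.21, 6.49 and 6.37 on the control arrays. IFNGR1 thus stayed within 0.02 of control, and IFNGR2 was lower in each number. IL17RA, the shared chain of the interleukin-17 receptors, read 9.29, 8.90 and 8.66 after 5 nm silver, 9.15, 8.37 and 8.56 after 100 nm silver and 9.14, 8.37 and 8.56 in controls. Its differences from control after 5 nm silver were 0.15, 0.52 and 0.10, all in 1 direction, with groups that overlapped. IL4R, the receptor chain of interleukins 4 and 13, had the highest mean of the interleukin receptors and read 9.42, 8.94 and 8.71 after 5 nm silver, 9.42, 8.95 and 8.75 after 100 nm silver and 9.42, 8.94 and 8.72 in controls. IL31RA, the interleukin-31 receptor, held 8.57, 8.20 and 7.98 in every group.

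The other expressed interleukin receptors were IL6R, IL17RC, IL17RD, IL17RE, IL17REL, IL18R1, IL20RB, IL21R, IL9R and IL1RAPL1. Their mean differences between 5 nm silver and control were 0.12 or less in size. The chemokine receptors lay low, at means of 3.55 to 6.10. CCR7, a homing receptor of lymphocytes, held 6.08, 5.78 and 6.43 in every group, and CCR10, a skin-homing receptor, held 5.70, 5.05 and 5.16. CXCR4, the receptor of CXCL12, read 5.84, 5.91 and 6.38 after 5 nm silver, 5.84, 6.24 and 6.37 after 100 nm silver and 5.84, 5.91 and 6.38 in controls. CX3CR1, the fractalkine receptor, read 5.62, 4.96 and 5.26 after 5 nm silver, 5.60, 4.96 and 4.97 after 100 nm silver and 5.60, 4.96 and 5.26 in controls. CCR4, CCR6, CCR9, CXCR1 and CXCR5 were also expressed, while CCR1, CCR2, CCR8, CXCR2, CXCR3 and CXCR6 were not. CSF1R, the macrophage growth factor receptor, held 6.29, 5.19 and 5.68 in every group, and CSF3R read 5.12, 5.31 and 4.81 after 5 nm silver, 5.12, 5.24 and 4.81 after 100 nm silver and 5.12, 5.24 and 4.81 in controls. Of all 38 expressed receptors, 15 had identical deposited values for 5 nm silver and control in every number, 6 were at least 0.1 higher on average and 2 at least 0.1 lower.

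The Toll-like receptors sense microbial products. TLR4, the lipopolysaccharide receptor, had the highest mean of them and read 10.59, 10.08 and 9.84 on the 5 nm arrays, 10.32, 9.45 and 9.61 on the 100 nm arrays and 10.36, 9.54 and 9.61 on the control arrays. It was higher after 5 nm silver by 0.23, 0.54 and 0.23, on average 0.34 (95% interval without the block -0.37 to 1.05). In limma its adjusted p was 1 without the block and 0.224 with it, where the unadjusted p was 0.0164. The groups overlapped, which includes the spread between replicate numbers. TLR3, which senses double-stranded RNA, went the other way. It read 7.51, 6.20 and 7.28 after 5 nm silver, 7.79, 6.84 and 7.37 after 100 nm silver and 7.80, 6.84 and 7.30 in controls, differences of -0.29, -0.64 and -0.02 between 5 nm silver and control. TLR6 read 7.36, 6.55 and 7.0 after 5 nm silver, 7.61, 6.65 and 7.0 after 100 nm silver and 7.50, 6.65 and 7.0 in controls, and TLR9, a sensor of unmethylated DNA, held 6.46, 6.17 and 5.83 in every group. TLR1, TLR2, TLR5, TLR7 and TLR10 were expressed with differences of under 0.1 in size on average, and TLR8 was not expressed.

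Among the ligands, 6 of 41 were at least 0.1 higher on average after 5 nm silver than in controls and 1 was at least 0.1 lower. The lower one was IL34, and over all tested genes 13.9% were at least 0.1 higher and 20.3% at least 0.1 lower. CCL2, which attracts monocytes, had the highest mean of the set's chemokines and read 11.02, 9.69 and 10.69 on the 5 nm arrays, 10.46, 9.69 and 10.84 on the 100 nm arrays and 10.44, 9.69 and 10.78 on the control arrays. Its difference of 0.58 in replicate 1 was not repeated in replicate 2, at 0.00, or in replicate 3, at -0.09. CXCL2 read 8.21, 7.97 and 7.36 after 5 nm silver, 7.51, 7.48 and 7.27 after 100 nm silver and 7.31, 7.48 and 7.36 in controls. Between 5 nm silver and control it differed by 0.90, 0.49 and 0.00, on average 0.46 (95% interval -0.07 to 1.00), with an adjusted p of 1 in limma and 0.346 with the block. CXCL2 has close copies in CXCL1 and CXCL3, and signal shared between their probes was not tested. CXCL3 was not expressed, and its differences were 0.08, -0.09 and -0.18.

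CSF3 read 8.08, 7.87 and 7.49 after 5 nm silver, 7.92, 7.21 and 7.40 after 100 nm silver and 8.0, 7.27 and 7.22 in controls. It was higher after 5 nm silver than in controls in each number, by 0.08, 0.60 and 0.27. The groups overlapped, and the interval of the mean from the fit without the block, -0.33 to 0.95, holds 0. CSF1, the macrophage colony-stimulating factor, read 7.35, 6.73 and 7.17 after 5 nm silver, 7.32, 6.71 and 7.07 after 100 nm silver and 7.32, 6.73 and 7.07 in controls. CCL5, a T-cell chemokine, read 6.09, 6.47 and 6.72 after 5 nm silver, 6.09, 6.47 and 6.72 after 100 nm silver and 5.98, 6.47 and 6.72 in controls, and CCL3L1, a copy of CCL3, held 6.46, 5.97 and 6.64 in every group. TNF itself was near the floor, at 5.67, 5.32 and 5.52 on the 5 nm arrays, 5.67, 5.32 and 5.52 on the 100 nm arrays and 5.67, 5.37 and 5.52 on the control arrays. The other expressed chemokines were CCL3, CCL4, CCL16 to CCL19, CCL21 to CCL27, CX3CL1, CXCL5, CXCL12, CXCL14, CXCL16 and CXCL17. Of these CCL18, CCL26 and CXCL5 were at least 0.1 higher on average after 5 nm silver, through differences of 0.32 and 0.13 in replicates 1 and 2 for CCL18, 0.45 in replicate 1 for CCL26 and 0.38 in replicate 3 for CXCL5. The interferon-induced chemokines CXCL9, CXCL10 and CXCL11 were not expressed, nor were CCL20, CXCL6 and CCL7.

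No interleukin differed from control by 0.1 or more on average after 5 nm silver except IL34. IL18, an inflammasome product, had the highest mean of them and read 8.07, 8.26 and 7.49 after 5 nm silver, 8.17, 8.28 and 7.49 after 100 nm silver and 8.17, 8.28 and 7.49 in controls. IL17D read 6.77, 6.31 and 6.66 after 5 nm silver, 6.76, 6.31 and 6.66 after 100 nm silver and 6.76, 6.31 and 6.66 in controls, and IL17B 6.31, 6.09 and 6.10, 6.31, 6.09 and 6.10, and 6.31, 6.19 and 6.10 in the same order. IL17C, an epithelial cytokine, varied more, at 7.04, 6.31 and 6.13 after 5 nm silver, 6.68, 6.31 and 6.35 after 100 nm silver and 6.68, 6.19 and 6.35 in controls, with both signs among its differences. IL34, a ligand of CSF1R, had a mean difference of -0.13, all of it from replicate 2, where the difference between 5 nm silver and control was -0.39. IL13, IL15, IL16, IL17F, IL19, IL24, IL25, IL27, IL32 and IL37 were also expressed, and the T-cell interleukins IL2, IL4, IL10, IL17A, IL21 and IL22 were not. Among the secreted antagonists and enzymes, IL4I1, a secreted amino acid oxidase, read 8.98, 8.86 and 9.05 after 5 nm silver, 9.09, 9.33 and 9.09 after 100 nm silver and 9.07, 9.33 and 9.09 in controls. Its differences between 5 nm silver and control were -0.09, -0.47 and -0.05, and all 3 of the 5 nm arrays lay below the control arrays. IL18BP, which binds and blocks interleukin-18, read 7.64, 7.06 and 7.35 after 5 nm silver, 7.64, 7.34 and 7.35 after 100 nm silver and 7.64, 7.57 and 7.35 in controls, so that its difference too came from replicate 2 alone. IL36RN, an interleukin-36 antagonist, held 5.29, 4.56 and 5.17 in every group.

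The NF-kB genes differed by small amounts. RELA, the p65 subunit, held 10.37, 9.59 and 10.24 in every group. NFKB1, the precursor of p50, read 9.25, 8.30 and 8.42 on the 5 nm arrays, 9.14, 8.23 and 8.32 on the 100 nm arrays and 9.14, 8.23 and 8.34 on the control arrays. It was higher after 5 nm silver in each number, by 0.12, 0.08 and 0.07, on average 0.09 with an SD of 0.02. The spread of NFKB1 between numbers, which the fit without the block counts as spread within a group, was far larger. With the block its unadjusted p was 0.000806 and its adjusted p 0.0683 in limma, the lowest of the set, and without the block its adjusted p was 1. RELB, a subunit that is itself an NF-kB target, read 7.09, 6.73 and 6.47 after 5 nm silver, 6.79, 6.50 and 6.47 after 100 nm silver and 6.80, 6.58 and 6.47 in controls. REL read 7.37, 6.72 and 7.61 after 5 nm silver, 7.65, 7.06 and 7.61 after 100 nm silver and 7.66, 7.06 and 7.61 in controls. Between 5 nm silver and control the differences in replicates 1 and 2 were thus of opposite sign, 0.29 and 0.14 for RELB and -0.29 and -0.34 for REL, and neither gene differed in replicate 3. NFKB2, the precursor of p52, read 7.44, 6.30 and 7.09 after 5 nm silver, 7.32, 6.30 and 7.09 after 100 nm silver and 7.30, 6.30 and 7.09 in controls. NFKBIL1, an inhibitor-like protein, read 6.80, 6.36 and 6.68 after 5 nm silver, 6.80, 6.35 and 6.73 after 100 nm silver and 6.80, 6.36 and 6.73 in controls.

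Over all 92 expressed genes, 37 had a positive mean difference between 5 nm silver and control, 26 a negative one and 29 exactly 0, equal in all 3 numbers (31.5%, against 19.0% of all tested genes). The median difference was 0.00, as it was over all tested genes. At least 0.1 higher were 13 genes (14.1%, against 13.9% of all tested genes) and at least 0.1 lower 6 (6.52%, against 20.3%). In 73 genes (79.3%) the mean difference was under 0.1 in size, beside 65.7% of all tested genes. Exact ties were found in 20 of 50 genes with a mean under 6 (40.0%, against 35.9% of all tested genes in that range) and in 2 of 10 with a mean of 8 or more (20.0% against 5.69%). In the brighter range 6 of 10 genes (60.0%) differed by at least 0.1 on average, against 49.9% of all tested genes, while under a mean of 6 it was 6 of 50 (12.0% against 15.4%). Differences of 1 sign in all 3 numbers were found in 6 genes that were higher (CSF3, IL17RA, IL1RL1, IL7R, NFKB1 and TLR4; 8.03% of all tested genes) and 3 that were lower (IFNGR2, IL4I1 and TLR3; 13.4%). The 6 and 3 are 6.52% and 3.26% of the 92.

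**Figure D3:**
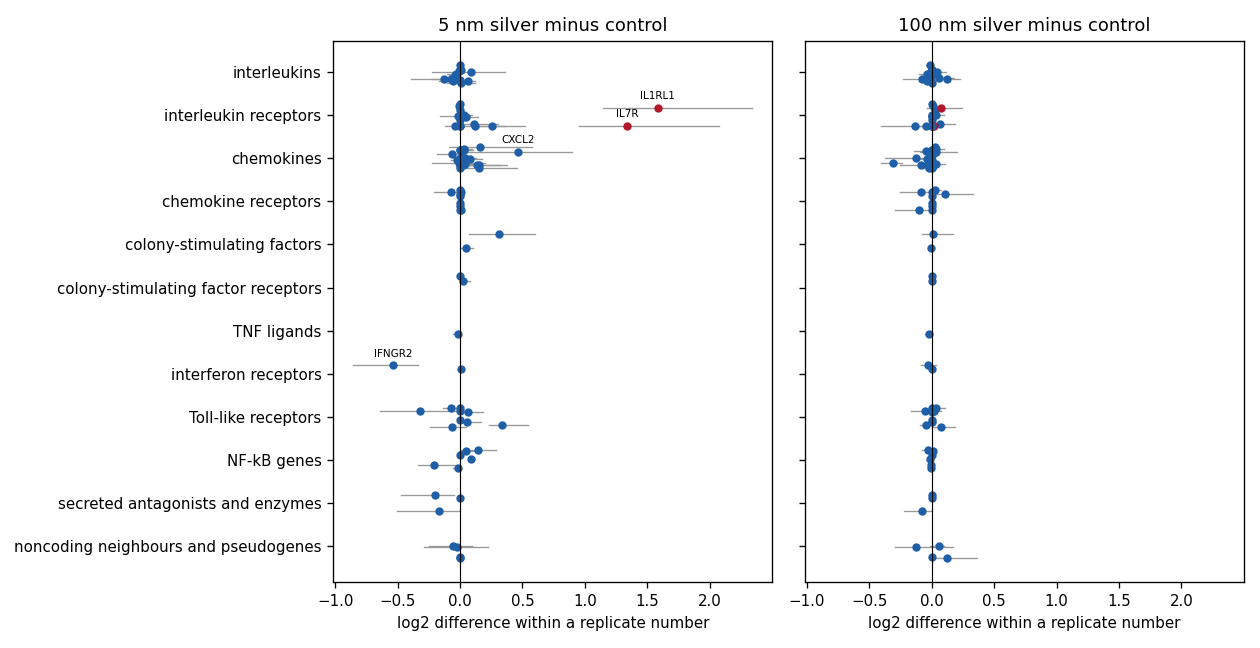
Mean log2 difference from control within replicate numbers (points, horizontal axis) with the lowest to highest of the 3 numbers (grey lines), by role, for 5 nm silver on the left and 100 nm silver on the right. Red points are IL1RL1 and IL7R, and every 100 nm point lies between -0.31 and 0.12.

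After 100 nm silver, no receptor, ligand or NF-kB gene of the set stood clearly apart from control. None of the 92 genes passed in limma, with or without the block, and 0.0% of all tested genes did in either fit. At an unadjusted p under 0.05 none passed without the block (0.0% of all tested genes) and 1, CCL4, passed with it (0.271%). Mean differences ran from -0.31 in CCL4 to 0.12 in IL34, and 85 of 92 genes (92.4%) were under 0.1 in size, beside 95.3% of all tested genes. At least 0.1 higher were CXCR4, IL12B-AS1 and IL34 (2.21% of all tested genes) and at least 0.1 lower CCL4, CXCL12, IL20RB and TNFRSF14-AS1 (2.48%). Exactly equal to control in all 3 numbers were 32 genes (34.8% of the 92, against 30.3% of all tested genes). CCL4, a chemokine for monocytes and T cells, was the only gene of 1 sign in all 3 numbers, lower each time (1.41% of all tested genes; 1.25% were higher each time). It read 4.10, 2.83 and 5.22 on the 100 nm arrays and 4.33, 3.24 and 5.51 on the control arrays, with 4.33, 3.01 and 5.71 on the 5 nm arrays. Of its arrays only those of replicate 3 reached the limit of 5. The 100 nm and control arrays overlapped in each of the 92 genes, where 0.00823% of all tested genes lay wholly above and 0.0247% wholly below, and 0.0% differed by over 0.5 in all 3 numbers. CCL4 differed by -0.23, -0.41 and -0.29 within the numbers, on average -0.31. Its 95% interval without the block was -2.04 to 1.42, with an adjusted p of 1 in limma. For IL1RL1 the difference between 100 nm silver and control was 0.08 (95% interval -0.81 to 0.96), and for IL7R 0.02 (-0.61 to 0.65). The comparisons of 5 nm and of 100 nm silver with control share the same 3 control arrays, so their differences are given side by side only.

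Set directly against each other, the particle sizes stood furthest apart in IL1RL1 and IL7R, as the largest mean differences of the 92 genes. IL1RL1 was 1.5 higher after 5 nm than after 100 nm silver (95% interval 0.62 to 2.39; adjusted p of 0.758 in limma, 0.142 with the block). IL7R was 1.32 higher (0.69 to 1.95; adjusted p 0.356 in limma, 0.145 with the block), and IFNGR2 differed by -0.51 (-1.28 to 0.26; 1 and 0.221). CXCL2 was 0.43 higher (-0.11 to 0.96; 1 and 0.345). None of the 92 genes passed (0.0658% of all tested genes), nor did any with the block (0.617%). In that fit the count became 5 (IL1RL1, IL7R, IL17RA, TLR4 and IFNGR2) without the 5 nm array of replicate 2, beside 2.71% of all tested genes, and 1 (REL) without the 5 nm array of replicate 3, beside 3.69%. At an unadjusted p under 0.05, 2 passed (IL1RL1 and IL7R; 1.7% of all tested genes), and with the block 8 (8.7% of the 92, against 14.3% of all tested genes). Of these 8, CCL4, CCL18, CCL22, IL1RL1, IL7R, NFKB1 and TLR4 were higher after 5 nm silver and IFNGR2 was lower. Higher after 5 nm silver in all 3 numbers were 11 genes (8.04% of all tested genes), the 6 named above for the comparison with control and CCL4, CCL18, CCL22, CSF1 and CXCL2, and lower in all 3 were IFNGR2, IL18, IL4I1 and TLR3 (13.0%). IL1RL1 and IL7R alone were over 0.5 higher in all 3 (0.806% of all tested genes, with 0.132% lower). By non-overlap of the arrays they lay above (1.37% of all tested genes) and IL4I1 below (0.444%). On average 17 genes were at least 0.1 higher (18.5% of the 92, against 14.5% of all tested genes) and 11 at least 0.1 lower (12.0% against 20.6%). Exactly equal in all 3 numbers were 29 genes (31.5% against 17.4%). The mass doses of the particles are not known here, so this comparison is one of preparations at about equal toxicity.

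The pathway around the family was read from lists of other genes, which were chosen with earlier results of these data known. Genes on them, such as PTGS2 and LIF, are therefore no independent readout of NF-kB. In limma without the block no gene of any list passed in any comparison. Of 27 tested genes that carry the signal from receptors to NF-kB, 14 were positive and 12 negative between 5 nm silver and control, with a median of 0.00. The largest in size were ZC3H12A, an RNase that degrades cytokine mRNAs, at 0.39, IRAK2, a kinase of interleukin-1 and Toll-like receptors, at 0.35, and BCL3, a nuclear NF-kB cofactor, at -0.33. The feedback deubiquitinase CYLD differed by 0.05 and the inhibitor TNIP1 by 0.00. Of 9 tested NF-kB targets outside the set, 5 were positive and 3 negative, with a median of 0.06. PTGS2, the inducible cyclooxygenase, was higher by 3.03, 3.60 and 1.19 within the numbers, on average 2.61 (95% interval 1.37 to 3.85; adjusted p 0.36 in limma, 0.16 with the block). LIF, a cytokine of the interleukin-6 family that the symbol rule does not catch, was higher by 2.18, 2.39 and 0.79, on average 1.79 (1.03 to 2.54; 0.227 and 0.142). BCL2A1, a survival protein, was higher by 0.57 and ICAM1, an adhesion molecule for leukocytes, by 0.28, each with an adjusted p of 1 in limma.

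Downstream of cytokine receptors, 20 genes of the JAK, STAT, SOCS and IRF families were tested, 7 positive and 12 negative. SOCS1, the feedback inhibitor of JAK kinases, was 0.71 higher (0.44, 1.20 and 0.49 within the numbers; adjusted p 1 in limma, 0.212 with the block). JAK1, the kinase shared by many cytokine receptors, was the only gene of these lists to pass with the block, higher by 0.23, 0.29 and 0.23 with an adjusted p of 0.0443, though its adjusted p was 1 in limma without the block. In the 10 other blocked fits, of the compared groups alone or without 1 array, JAK1 did not pass (adjusted p 0.053 to 0.542). Of 17 tested interferon-stimulated genes, 6 were positive and 10 negative, from -0.27 in USP18 and -0.25 in IFI44L to 0.19 in IRF7. Of 4 tested regulators of cytokine mRNA decay, 3 were positive and 0 negative, with a median of 0.14. Counts of genes higher and lower in all 3 numbers were 6 and 8 of 27 for NF-kB signalling and 4 and 3 of 9 for NF-kB targets. They were 3 and 0 of 20 for JAK, STAT, SOCS and IRF genes. For interferon-stimulated genes they were 0 and 4 of 17, and for mRNA decay 3 and 0 of 4. Over all tested genes 8.03% were higher and 13.4% lower in all 3 numbers. The 13 tested endothelial markers had a median difference of -0.07 between 5 nm silver and control. Of these 13, 4 were lower in all 3 numbers, against 13.4% of all tested genes. The 6 leukocyte markers had a median of 0.00. In these bulk samples fewer cells of a type and less RNA per cell cannot be told apart, and the part of the markers in these results was not tested. Between 100 nm silver and control, the 5 pathway lists ran from -0.13 in BCL2A1 to 0.17 in LIF, and the marker lists from -0.15 to 0.07.

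**Figure D4:**
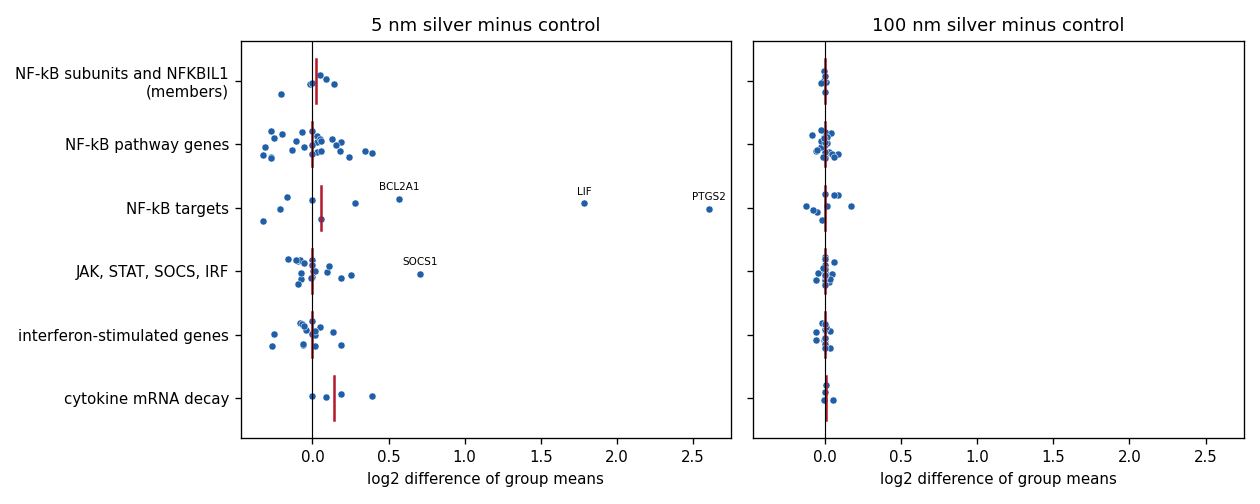
Difference of group means in log2 (horizontal axis) of each tested gene of the NF-kB genes of the set and of 5 lists chosen with earlier results known (rows). The left side is 5 nm silver minus control and the right side 100 nm silver minus control. Red bars are list medians. PTGS2, LIF, SOCS1 and BCL2A1 are the named points on the left, and no point on the right passes 0.17.

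The 7 noncoding neighbours and pseudogenes that the symbol rule caught carry no cytokine product. TNFRSF10A-DT held 7.32, 6.90 and 6.79 in every group. TNFRSF14-AS1 read 6.44, 5.74 and 6.21 after 5 nm silver, 6.38, 5.74 and 5.96 after 100 nm silver and 6.21, 6.03 and 6.21 in controls, with both signs among its differences. CXCR2P1, a pseudogene, read 5.21, 4.40 and 4.88 after 5 nm silver, 5.21, 4.40 and 5.23 after 100 nm silver and 5.12, 4.41 and 5.13 in controls. IL12B-AS1 read 5.49, 4.13 and 4.65 after 5 nm silver, 5.49, 4.50 and 4.65 after 100 nm silver and 5.49, 4.13 and 4.65 in controls, and IL10RB-DT, IL21R-AS1 and TLR8-AS1 were not. Among genes that did not reach the limit and so were not tested, CCL7 varied most, at -1.35, 0.73 and -0.04 between 5 nm silver and control, and IL18RAP, an interleukin-18 co-receptor, was higher by 0.05, 0.37 and 0.67.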

How the data were processed

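Gene expression in EA.hy926 cells was measured on 9 arrays, 3 each for 5 nm silver, 100 nm silver and control. The authors deposited log2 intensities for 53617 probe sets. The submitters' processing notes name RMA and Affymetrix Expression Console 1.3.1 as tools, and no genome build is given in the sources used here. A single gene symbol was listed for 16098 probe sets and none for 37519. The 14884 genes were each read from the probe set with the highest mean.

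Genes with a log2 value of at least 5 on 3 or more arrays (12155) were tested with limma 3.58.1 under R 4.3.3, using lmFit and eBayes on group means of all 9 arrays, with Benjamini-Hochberg adjustment over all of them. The script was tested on simulated data. Groups came from the labels. Alternatives were the replicate number as a block, other limits on low values, fits of only the groups compared, an intensity trend, centred or quantile-normalized arrays, averaged probe sets and leaving out single arrays. Deviations from group means correlated at 0.762 to 0.967 for same-numbered arrays and at -0.582 to -0.265 for other pairs. Such deviations cancel out within a group, so the negative values follow from the positive ones. Same-numbered arrays thus share a part of their values, and whether it comes from the experiment or from processing was not tested. The number of arrays limits the precision.

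The members and lists were chosen with earlier results of these data known. Values on every array are given for genes that passed or differed by over 0.5 with 1 sign in all 3 numbers, for the NF-kB genes and for the 4 highest means of each role. Other genes with values, such as CCL4, IL34, CCL18, CCL26, CXCL5, CCL7, CXCL3, IL18RAP, IRAK2, CYLD, TNIP1, ICAM1 and the ligands IL33 and IL7, were named after their values were seen.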

Additional observations from a re-analysis of the deposited data

How the results depend on the processing

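With 0 genes of the set passing in limma in each comparison, 0 also passed with the block on all 9 arrays or on the groups compared, no or a stricter limit on dim genes, an intensity trend, centred or quantile-normalized arrays and averaged probe sets. Leaving out 1 array, with or without the replicate number as a block, gave 0 to 4 genes between 5 nm silver and control, 0 to 0 between 100 nm silver and control and 0 to 5 between the particle sizes. Without the block all-gene calls were 6 to 15 and 6 to 19 of 12155 for 5 nm silver against control and against 100 nm silver when 1 array was left out, and with the block 2 to 446 and 7 to 449; the fits with the block that leave out an array were chosen after seeing the data. In those fits the adjusted p without the 5 nm array of replicate 2 was 0.00385 for IL7R and 0.022 for IL1RL1 against control, and the cause was not tested. The count of expressed genes was 92, and became 48 at a limit of 6 on 3 arrays and 59 at a limit of 5 on every array, by the construction of the limits. Between 5 nm silver and control, IL1RL1 ranged from 1.19 to 1.82 over the alternatives and IL7R from 0.98 to 1.57. IFNGR2 ranged from -0.85 to -0.29, CXCL2 from 0.28 to 0.71, CSF3 from 0.16 to 0.57, TLR4 from 0.13 to 0.60 and IL17RA from 0.09 to 0.48. The sign changed in NFKB1 (-0.21 to 0.37), CCL2 (-0.14 to 0.55), REL (-0.40 to 0.05), RELB (-0.02 to 0.29) and TLR3 (-0.57 to 0.08). RELA, with the same deposited values in every group, still ranged from -0.24 to 0.24. Leaving out 1 array without the block unbalances the replicate numbers, so these ranges include the spread between numbers. Among all tested genes 79 passed with the block and 9 without it between 5 nm silver and control, but 0 in a blocked fit of those groups alone, 2 without the control array of replicate 3 and 446 without the 5 nm array of replicate 3. Intensities near 5 lie within the range of genes that an endothelial line need not express, which limits what low values show.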
